A study of Homo sapiens with 16 samples.

Results

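The 10 genes NFE2L2, HMOX1, NQO1, GCLC, GCLM, TXNRD1, SRXN1, SOD2, FTH1 and FTL make up an antioxidant and iron storage set. They were taken by gene symbol from a table of 23575 symbols, and all 10 were listed. The study exposed HL-60, a human promyelocytic leukaemia cell line, to lipoteichoic acid (LTA) of Staphylococcus aureus and measured RNA by sequencing. LTA is a cell wall glycolipid of Gram-positive bacteria that cells sense through TLR2. All cells carried the wild-type label. Differentiated cells (dHL-60) were kept without LTA or with LTA at 1 or 10 µg/ml, and sampled after 4 or 24 h, with 2 libraries in each of the 6 groups. Undifferentiated cells (uHL-60) were kept without LTA or with 1 µg/ml, and sampled after the same times, with 1 library in each of the 4 groups. Which agent differentiated the cells is not stated in the labels. Nothing says that the 2 libraries of a group are separate cultures. The p-values therefore measure the spread between these libraries alone, which may be technical.

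NRF2, the product of NFE2L2, is a transcription factor held at low abundance by KEAP1, which marks it for degradation. When KEAP1 is modified by oxidants or electrophiles, NRF2 accumulates, pairs with small MAF proteins and activates genes for glutathione synthesis, thioredoxin reduction, quinone and haem breakdown and iron storage. SOD2 is usually described as a target of NF-κB, the factor that TLR2 signals activate, and FTH1 as a target of both pathways. Ferritin protein is also set by translation, which RNA levels do not show. Neutrophils and their model cells make superoxide through the phagocyte NADPH oxidase, so they carry both the source of these oxidants and the defence against them.

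Libraries held 9653374 to 20157081 gene counts. Levels are in CPM, counts scaled by library size and TMM factors, and differences are log2 fold changes ± SE from edgeR. A gene is called where its adjusted p, over all genes tested, is under 0.05. The 7 promyelocyte markers, all detected in every group, summed to 23819 to 26548 CPM in uHL-60. In dHL-60 at 4 h they summed to 9112 to 12022 CPM untreated, 8460 to 9275 CPM with 1 µg/ml and 7561 to 8642 CPM with 10 µg/ml. At 24 h they summed to 17165 to 22533 CPM untreated, 6352 to 9433 CPM with 1 µg/ml and 4876 to 6034 CPM with 10 µg/ml. The 6 eosinophil and basophil markers summed to 4155 to 4479 CPM in uHL-60. In dHL-60 they summed to 33.7 to 37.5 CPM untreated at 4 h and 29.7 to 29.9 CPM at 24 h, with CPA3 at 0, and to 6.34 to 26.4 CPM with LTA. The 9 neutrophil markers, all of them detected in every group, summed to 247 to 276 CPM in uHL-60 and, in untreated dHL-60, to 5446 to 7174 CPM at 4 h and 1593 to 1689 CPM at 24 h. With 1 µg/ml LTA they summed to 7506 to 7854 CPM at 4 h and 7393 to 7438 CPM at 24 h. With 10 µg/ml they summed to 7475 to 8091 CPM at 4 h and 13185 to 14316 CPM at 24 h. In bulk RNA, fewer cells of a type and less RNA per cell cannot be told apart. The 9 macrophage markers, of which 4 to 9 were detected in a dHL-60 group, moved with LTA too, from 110 to 111 CPM in untreated dHL-60 at 4 h to 540 to 596 CPM with 1 µg/ml and 470 to 551 CPM with 10 µg/ml. At 24 h they summed to 29.5 to 34.0 CPM untreated, 124 to 147 CPM with 1 µg/ml and 218 to 243 CPM with 10 µg/ml. MSR1, a defining macrophage receptor, was at 0 counts in 5 of the 6 dHL-60 groups. Of 8 red cell and platelet markers, 6 were detected in untreated cells at 4 h (34.4 to 37.7 CPM summed) and with 10 µg/ml LTA at 4 h (22.8 to 26.2 CPM), against at most 3.60 CPM summed in the other dHL-60 groups, where between 1 and 4 were detected. The part of these marker levels in the results was not tested.

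At 4 h, LTA raised most of the 10 genes, and GCLC alone among them fell. With 1 µg/ml, 6 of 10 rose and 1 fell, where 38.7% of all genes tested were called (18.7% higher, 20.1% lower). With 10 µg/ml, 8 of 10 rose and 1 fell, against 41.3% of all genes (20.0% higher, 21.3% lower). The median log2 fold change of the 10 genes was 1.19 with 1 µg/ml and 1.63 with 10 µg/ml, the same when SRXN1 stood at its lower bound, while the median of all genes tested was -0.04 at either dose. SRXN1, counted among those that rose, had 0 counts in both controls and passed the filter on low counts through its LTA libraries. Its calls at 4 h are therefore not used as support. At 24 h, 5 of 10 rose and 0 fell with 1 µg/ml, where 21.2% of all genes were called (13.9% higher, 7.26% lower). With 10 µg/ml, 6 of 10 rose and 1 fell, where 42.6% were called (23.6% higher, 19.0% lower). The medians there were 0.53 and 0.92, against 0.01 and -0.01 over all genes.

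**Figure D1:**
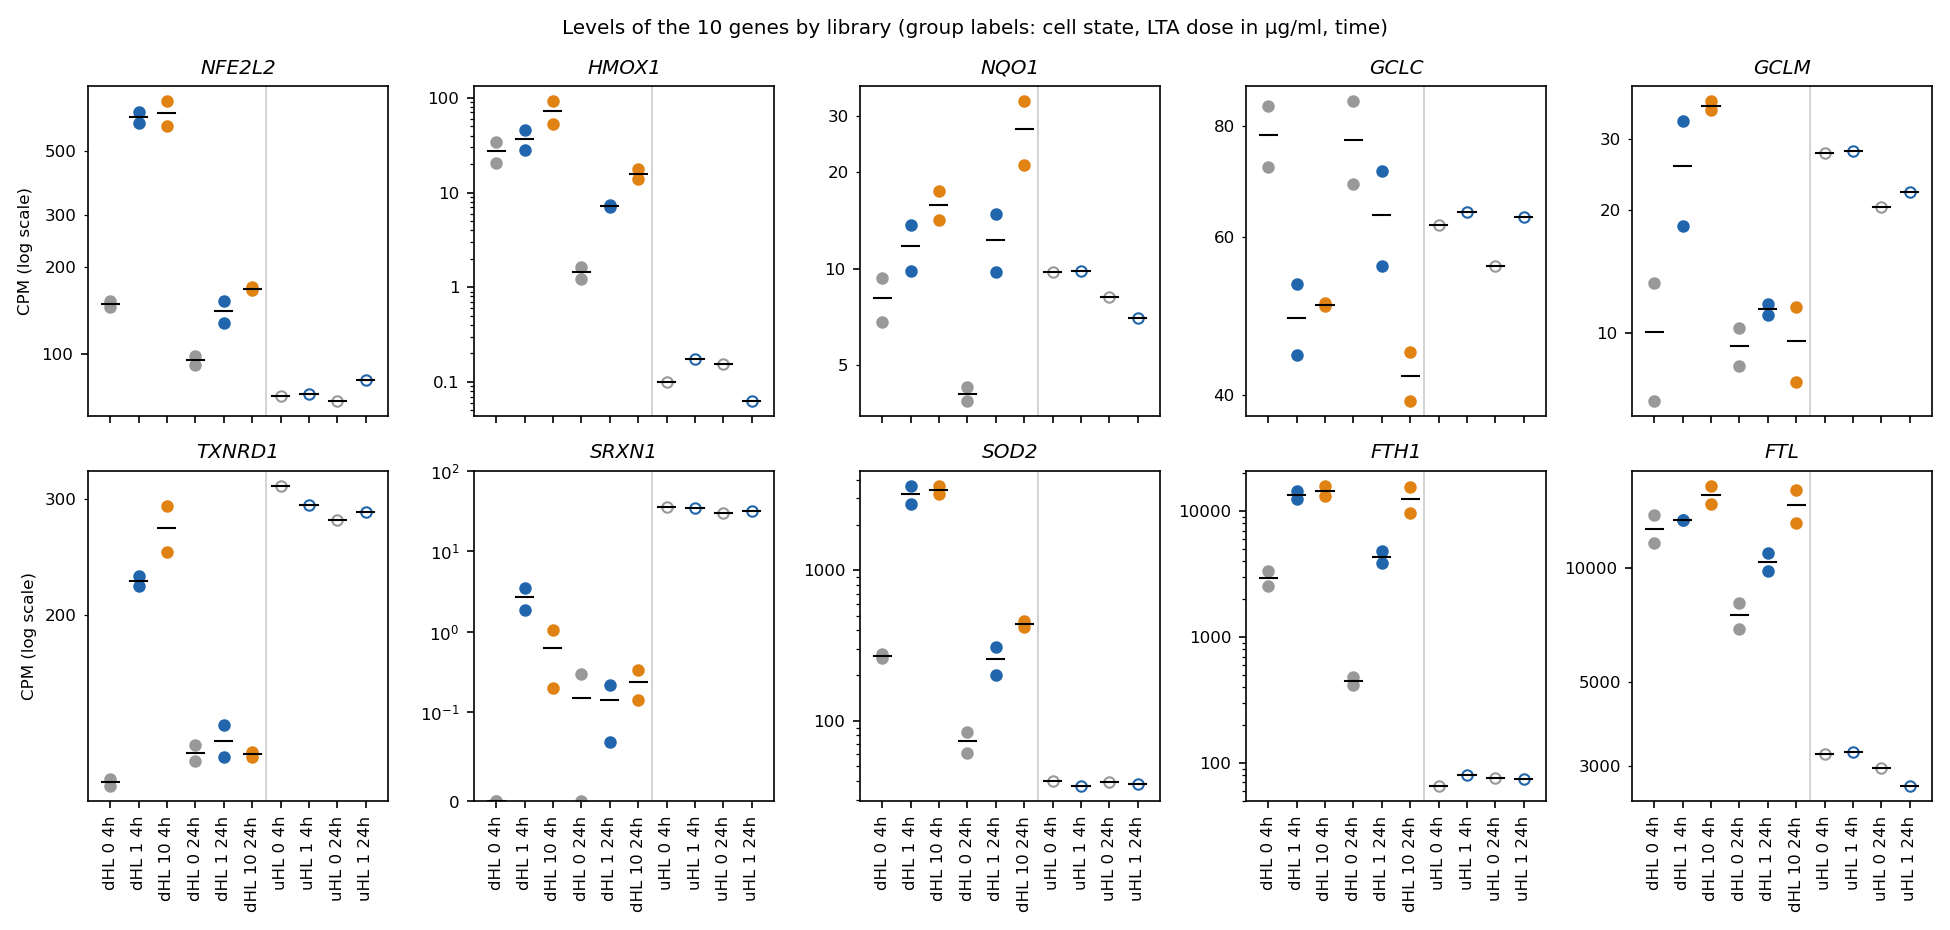
Level of each of the 10 genes in every library, in CPM on a log scale (SRXN1 linear below 0.1 CPM, so that counts of 0 can be shown). Each point is 1 library, each line a group mean, grey untreated, blue 1 µg/ml and orange 10 µg/ml LTA, with uHL-60 open and right of the grey line. NFE2L2, SOD2, TXNRD1 and GCLM are high in the 4 libraries with LTA at 4 h, while FTH1, HMOX1 and NQO1 start from low untreated levels at 24 h.

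The untreated cells themselves changed with time, which sets the base for the 24 h comparisons. Between 4 and 24 h without LTA, 6 of 10 genes fell and 0 rose, where 40.9% of all genes were called (17.8% higher, 23.1% lower). HMOX1 fell by 4.26 ± 0.38 on the log2 scale (adjusted p = 3.20e-06), FTH1 by 2.71 ± 0.24 (adjusted p = 2.65e-06) and SOD2 by 1.87 ± 0.22 (adjusted p = 2.94e-05). FTL fell by 0.76 ± 0.17 (adjusted p = 0.00278), NFE2L2 by 0.64 ± 0.14 (adjusted p = 0.00302) and NQO1 by 1.00 ± 0.30 (adjusted p = 0.0179). The call for NQO1 was lost without control replicate 2 at 4 h (-0.75, adjusted p = 0.134) and without replicate 1 (-0.93, adjusted p = 0.107) or replicate 2 (-1.05, adjusted p = 0.0527) of the 24 h control. GCLC (-0.01 ± 0.16), GCLM (-0.11 ± 0.32) and TXNRD1 (0.15 ± 0.13) were not called. The summed neutrophil markers were lower and the summed promyelocyte markers higher in the untreated libraries at 24 h, as given above.

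NFE2L2 (chr2:177230303-177264727, minus strand, GRCh38), the gene of the regulator itself, rose at both times, with its higher levels at 4 h. The 2 untreated libraries held 153 and 145 CPM, the 2 with 1 µg/ml LTA 677 and 623 CPM, and the 2 with 10 µg/ml 740 and 609 CPM. The LTA libraries lay far above the controls, and the 2 doses overlapped. The log2 fold change was 2.12 ± 0.15 with 1 µg/ml (adjusted p = 2.09e-07) and 2.18 ± 0.15 with 10 µg/ml (adjusted p = 1.49e-07). At 24 h the controls held 99.0 and 91.7 CPM, the 1 µg/ml libraries 153 and 128 CPM, and the 10 µg/ml libraries 170 and 166 CPM. All treated libraries were above the 24 h controls, but none reached the levels of the 4 h LTA libraries. NFE2L2 rose by 0.57 ± 0.14 with 1 µg/ml (adjusted p = 0.0107) and by 0.84 ± 0.14 with 10 µg/ml (adjusted p = 0.000380). Without control replicate 2 (0.51, adjusted p = 0.0881) or LTA replicate 1 (0.44, adjusted p = 0.140) the call at 1 µg/ml and 24 h was lost. In GENCODE 29, 17.6% of its exon bases are shared with AC019080.1 on the same strand.

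SOD2 (chr6:159669069-159762281, minus strand), the manganese superoxide dismutase of mitochondria, turns superoxide into hydrogen peroxide. It held 277 and 260 CPM in the 4 h controls, 2765 and 3635 CPM with 1 µg/ml LTA and 3635 and 3221 CPM with 10 µg/ml. Its log2 fold changes, 3.58 ± 0.24 with 1 µg/ml (adjusted p = 1.44e-07) and 3.68 ± 0.24 with 10 µg/ml (adjusted p = 1.02e-07), were the largest at 4 h among the 9 genes with counts in the controls. By 24 h the controls had fallen to 84.8 and 61.5 CPM, with 311 and 200 CPM at 1 µg/ml and 419 and 457 CPM at 10 µg/ml. The groups did not overlap, and SOD2 rose by 1.82 ± 0.22 with 1 µg/ml (adjusted p = 6.66e-05) and by 2.60 ± 0.23 with 10 µg/ml (adjusted p = 1.35e-06). SOD2 lies antisense to ACAT2 and WTAP, and whether reads were counted by strand is not stated in the labels or notes.

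TXNRD1 (chr12:104215779-104350307, plus strand) encodes the cytosolic thioredoxin reductase, which passes electrons from NADPH to thioredoxin. It held 110 and 113 CPM untreated at 4 h, 229 and 221 CPM with 1 µg/ml LTA and 293 and 249 CPM with 10 µg/ml, with no overlap between the 3 groups. The gene rose by 1.01 ± 0.13 with 1 µg/ml (adjusted p = 3.40e-05) and by 1.29 ± 0.13 with 10 µg/ml (adjusted p = 3.89e-06). At 24 h all 6 dHL-60 libraries lay between 120 and 136 CPM. Neither dose was called there, at 0.08 ± 0.13 (adjusted p = 0.709) and 0.02 ± 0.13 (adjusted p = 0.929).

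SRXN1 (chr20:646615-653200, minus strand), sulfiredoxin, repairs over-oxidised peroxiredoxins. It was near the limit of detection in dHL-60: 0 counts in both 4 h controls, 15 and 44 counts with 1 µg/ml LTA and 2 and 11 counts with 10 µg/ml at 4 h. Against a floor of 3 counts over the control group, it was at least 20.3-fold higher with 1 µg/ml (adjusted p = 0.00103) and at least 4.47-fold higher with 10 µg/ml (adjusted p = 0.0329). It passed the filter on low counts through its LTA libraries, where it is high, so neither call is used as support. The call at 10 µg/ml was lost without either control library (adjusted p = 0.0914 and 0.108) or without LTA replicate 2 (adjusted p = 0.244). At 24 h it had 0 and 4 counts untreated, 3 and 1 with 1 µg/ml and 4 and 2 with 10 µg/ml. The ratio to the controls was 1.11 (95% exact binomial interval 0.207 to 5.97) and 1.83 (0.434 to 8.81), so no difference was detectable at these counts. In GENCODE 29, 85.0% of the exon bases of SRXN1 are shared with AL121758.1 on the same strand. A part of that overlap in its low dHL-60 counts was not tested.

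GCLC and GCLM encode the catalytic and the modifier subunit of glutamate-cysteine ligase, the rate-limiting enzyme of glutathione synthesis, and they moved in opposite directions at 4 h. GCLM (chr1:93885199-93909430, minus strand) held 6.80 and 13.3 CPM in the controls, 18.3 and 33.1 CPM with 1 µg/ml LTA and 37.1 and 35.2 CPM with 10 µg/ml. Every treated library exceeded both controls, though the libraries within the untreated and 1 µg/ml groups were far apart. GCLM rose by 1.36 ± 0.31 with 1 µg/ml (adjusted p = 0.00356) and by 1.84 ± 0.31 with 10 µg/ml (adjusted p = 0.000345). Without LTA replicate 2 the value at 1 µg/ml was 0.85 (adjusted p = 0.0684). GCLC (chr6:53497341-53545101, minus strand) held 72.0 and 84.2 CPM in the controls, 44.3 and 53.2 CPM with 1 µg/ml and 50.6 and 50.3 CPM with 10 µg/ml. All 4 treated libraries lay below both controls, and GCLC fell by 0.68 ± 0.17 with 1 µg/ml (adjusted p = 0.00573) and by 0.62 ± 0.17 with 10 µg/ml (adjusted p = 0.00856). The call at 1 µg/ml was lost without LTA replicate 1 (-0.55, adjusted p = 0.0534) and the call at 10 µg/ml without control replicate 2 (-0.52, adjusted p = 0.0596).

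At 24 h GCLM was called at neither dose, and GCLC was lower with 10 µg/ml. GCLM held 10.3 and 8.29 CPM untreated, 11.8 and 11.1 CPM with 1 µg/ml and 7.58 and 11.6 CPM with 10 µg/ml, and was not called (0.31 ± 0.31, adjusted p = 0.528, and 0.07 ± 0.31, adjusted p = 0.877). GCLC held 85.3 and 68.9 CPM untreated, 71.3 and 55.8 CPM with 1 µg/ml, which overlap, and 39.3 and 44.7 CPM with 10 µg/ml, which do not overlap the controls. It was not called at 1 µg/ml (-0.27 ± 0.16, adjusted p = 0.277) and fell by 0.85 ± 0.17 at 10 µg/ml (adjusted p = 0.00109).

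The bases just before the annotated start of these genes are shown because the antioxidant response element, the DNA motif that NRF2 and small MAF proteins read, is known from the regulatory regions of many of these genes. Its core was searched as TGACNNNGC on both strands in the 250 bases before and 50 after the start, from RefSeq on GRCh38.p14, where 8 of the 10 genes have an entry. GCLM held it once, at -34 to -26 on the opposite strand, and TXNRD1 held it at -99 to -91 and, on the opposite strand, at -8 to 1. The windows of NFE2L2, NQO1, GCLC, SRXN1, SOD2 and FTL held none. For SOD2 (chr6:159727385-159727634) and NFE2L2 (chr2:177264132-177264381) the bases before that start lie inside the gene span given above. The bases before the outer end of these 2 spans were not searched. Of 27305 promoters in the table, 13.6% held the core, against 2 of the 8. A κB consensus (10.8% of promoters) was found in 0 of the 8. A match is a string of letters and not a bound site, and distal elements lie outside this window. The 250 bases before the start follow 5′ to 3′ on the strand of the gene, with the core in capitals. They are given for the 2 genes that hold it and for GCLC, the partner of GCLM, which holds none. NFE2L2 and SOD2, and NQO1 with 10 µg/ml, also rose at 4 h and hold none. Whether the core goes with the response was not tested. The second core of TXNRD1 runs past the start, so its last base is not printed.
GCLM, chr1:93909431-93909680, minus strand: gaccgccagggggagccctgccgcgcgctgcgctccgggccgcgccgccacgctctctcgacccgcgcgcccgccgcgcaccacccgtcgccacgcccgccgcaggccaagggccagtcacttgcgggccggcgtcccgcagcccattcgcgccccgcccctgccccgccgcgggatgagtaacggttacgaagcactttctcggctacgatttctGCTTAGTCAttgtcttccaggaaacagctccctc
TXNRD1, chr12:104215529-104215778, plus strand: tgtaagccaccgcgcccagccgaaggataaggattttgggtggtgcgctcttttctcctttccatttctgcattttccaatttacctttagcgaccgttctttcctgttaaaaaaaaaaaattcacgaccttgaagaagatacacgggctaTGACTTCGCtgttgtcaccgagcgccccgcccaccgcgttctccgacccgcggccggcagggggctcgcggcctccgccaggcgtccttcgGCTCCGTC
GCLC, chr6:53545102-53545351, minus strand: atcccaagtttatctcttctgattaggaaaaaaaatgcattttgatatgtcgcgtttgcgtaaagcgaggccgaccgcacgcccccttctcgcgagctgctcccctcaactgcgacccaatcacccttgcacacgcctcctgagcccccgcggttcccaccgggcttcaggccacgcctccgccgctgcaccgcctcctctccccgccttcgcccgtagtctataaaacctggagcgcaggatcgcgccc

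HMOX1 and NQO1, the target genes most often used to read NRF2 activity, had their larger fold changes over control at 24 h. HMOX1 (chr22:35381096-35394207, plus strand), haem oxygenase 1, opens the haem ring and releases its iron. At 4 h it held 20.6 and 34.0 CPM untreated, 28.0 and 45.4 CPM with 1 µg/ml LTA and 52.9 and 92.5 CPM with 10 µg/ml. Only the 10 µg/ml libraries cleared the controls: HMOX1 rose by 1.41 ± 0.29 there (adjusted p = 0.00142), against 0.43 ± 0.29 at 1 µg/ml (adjusted p = 0.256). At 24 h the controls held 1.23 and 1.64 CPM (23 and 22 counts), the 1 µg/ml libraries 7.46 and 6.97 CPM and the 10 µg/ml libraries 14.0 and 17.6 CPM. The 3 groups were well apart, yet each 24 h library was below every untreated library at 4 h. HMOX1 rose by 2.36 ± 0.41 with 1 µg/ml (adjusted p = 0.00110) and by 3.50 ± 0.39 with 10 µg/ml (adjusted p = 1.10e-05) over that lower base.

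NQO1 (chr16:69709401-69726560, minus strand) encodes a quinone reductase that uses NADH or NADPH. At 4 h it held 6.80 and 9.34 CPM untreated, 9.81 and 13.7 CPM with 1 µg/ml LTA and 14.2 and 17.4 CPM with 10 µg/ml. No treated library was as low as a control, but only 10 µg/ml was called (0.97 ± 0.28, adjusted p = 0.0136, against 0.55 ± 0.29, adjusted p = 0.144). That call was lost without control replicate 1 (0.78, adjusted p = 0.0936) or LTA replicate 2 (0.81, adjusted p = 0.0918). At 24 h it held 3.85 and 4.26 CPM untreated, 14.8 and 9.74 CPM with 1 µg/ml and 33.3 and 21.1 CPM with 10 µg/ml. The 3 groups did not overlap, and the 10 µg/ml libraries at 24 h were the highest of all 16 for this gene. NQO1 rose by 1.61 ± 0.29 with 1 µg/ml (adjusted p = 0.00141) and by 2.77 ± 0.29 with 10 µg/ml (adjusted p = 5.60e-06).

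Ferritin stores iron in a shell of heavy and light chains, encoded by FTH1 (chr11:61964285-61967634, minus strand), which oxidises the iron, and FTL (chr19:48965309-48966879, plus strand), which helps it to form a core. FTH1 held 3331 and 2567 CPM in the 4 h controls, 14449 and 12591 CPM with 1 µg/ml LTA and 13121 and 15938 CPM with 10 µg/ml. The doses overlapped and stood well above the controls, with a rise of 2.20 ± 0.23 at 1 µg/ml (adjusted p = 7.53e-06) and 2.30 ± 0.23 at 10 µg/ml (adjusted p = 4.48e-06). At 24 h FTH1 held 482 and 418 CPM untreated, 4800 and 3892 CPM with 1 µg/ml and 15472 and 9704 CPM with 10 µg/ml. The 3 groups were separate, and only the 10 µg/ml libraries were in reach of the 4 h LTA levels. FTH1 rose by 3.29 ± 0.24 with 1 µg/ml (adjusted p = 9.93e-07) and by 4.83 ± 0.26, a 28.4-fold rise, with 10 µg/ml (adjusted p = 2.15e-08), the largest change of the 10 genes at that dose and time.

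FTL had smaller fold changes and was called with 10 µg/ml at 24 h. At 4 h it held 13804 and 11648 CPM untreated, 13444 and 13400 CPM with 1 µg/ml and 14805 and 16534 CPM with 10 µg/ml, and neither dose was called (0.08 ± 0.17, adjusted p = 0.749, and 0.31 ± 0.17, adjusted p = 0.160). At 24 h it held 6921 and 8097 CPM untreated, 9819 and 10974 CPM with 1 µg/ml and 16159 and 13193 CPM with 10 µg/ml, without overlap. FTL rose by 0.99 ± 0.17 with 10 µg/ml (adjusted p = 0.000371). With 1 µg/ml it was 0.49 ± 0.17 (adjusted p = 0.0532), which is called with no filter on low counts (adjusted p = 0.0159) and with DESeq2 (adjusted p = 0.0168).

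The ratio of FTH1 to FTL counts, not corrected for length, therefore shifted. It was 0.241 and 0.220 in the 4 h controls, 1.07 and 0.940 with 1 µg/ml LTA and 0.886 and 0.964 with 10 µg/ml. At 24 h it was 0.0696 and 0.0517 untreated, 0.489 and 0.355 with 1 µg/ml and 0.958 and 0.736 with 10 µg/ml. All LTA libraries were above all controls of their time. Per exon base of GENCODE 29, FTH1 stayed below FTL in every library, at most 0.465 of its level. Together the 2 genes took 1.56% to 1.70% of all counts in untreated cells at 4 h and 0.837% to 0.944% at 24 h, against 2.30% to 2.77% with 10 µg/ml at 4 h and 2.37% to 3.16% at 24 h. Both genes have many processed copies, 25 for FTH1 and 16 for FTL in GENCODE 29. The table lists 1 copy of each, with 1 to 15 counts per library for FTH1P3 and 0 for FTLP10, and the treatment of reads that match several copies is not stated in the labels or notes.

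**Figure D2:**
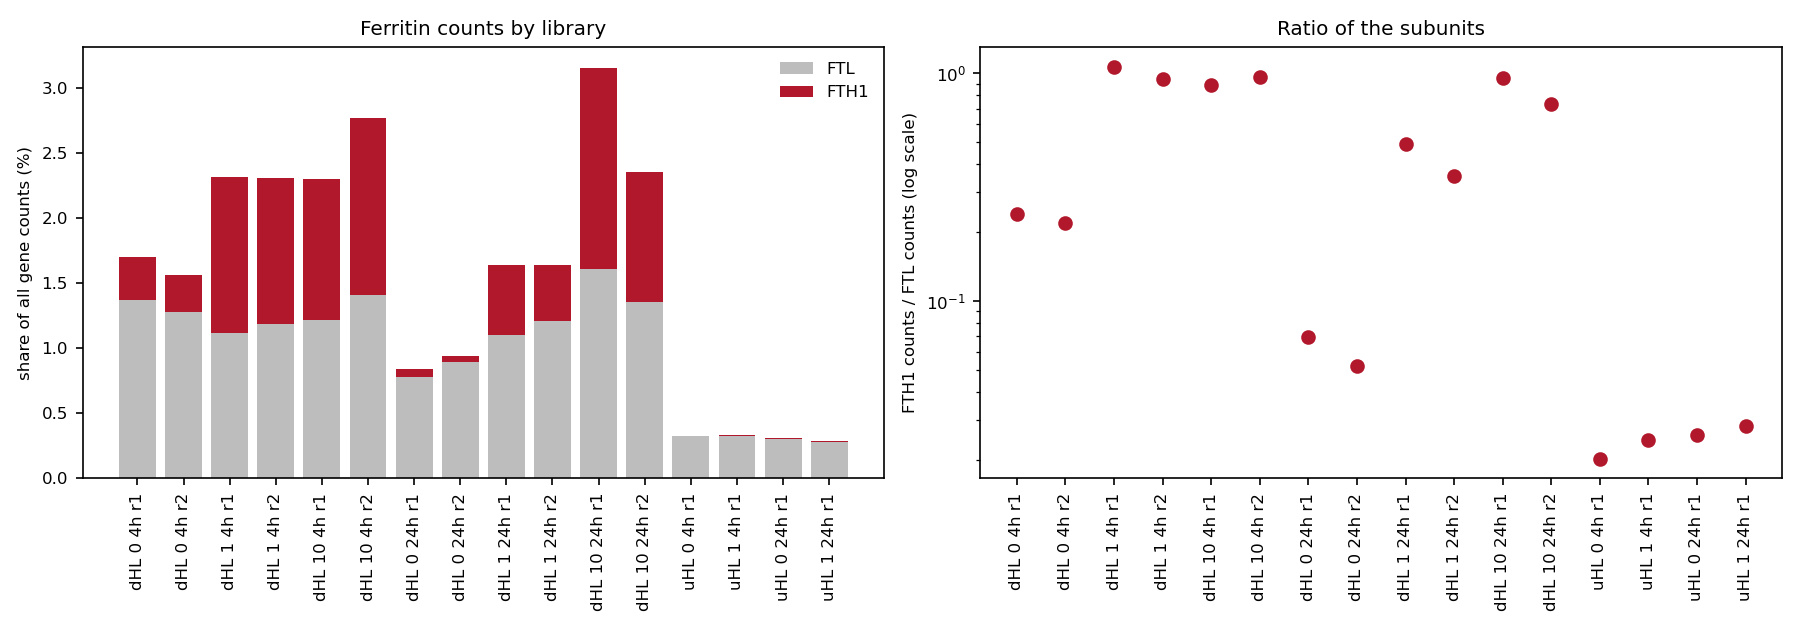
Left, share of all gene counts (%) taken by FTL (grey) and FTH1 (red) in each library, stacked from 0. Right, FTH1 counts divided by FTL counts in each library, on a log scale. The ratio is 0.22 or more in every dHL-60 library except the untreated ones at 24 h (0.0517 and 0.0696), and 0.0203 to 0.0283 in the 4 uHL-60 libraries.

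The 10 genes thus differed in when they answered, and the difference between the responses was tested as an interaction (24 h minus 4 h). The 2 doses share their controls. At 1 µg/ml, 5 of 10 responses differed, 2 of them larger and 3 smaller at 24 h, where 20.7% of all genes were called (13.3% larger, 7.41% smaller). Those of SOD2 (-1.76 ± 0.31, adjusted p = 0.00124), NFE2L2 (-1.55 ± 0.20, adjusted p = 0.000151) and TXNRD1 (-0.93 ± 0.18, adjusted p = 0.00236) were smaller at 24 h. Those of HMOX1 (1.93 ± 0.51, adjusted p = 0.0156) and FTH1 (1.09 ± 0.32, adjusted p = 0.0258) were larger. HMOX1 lost its call without replicate 1 of the 24 h control (1.72, adjusted p = 0.0968). FTH1 was not called in 5 of the 8 fits with 1 library left out, namely control replicate 1 (0.88, adjusted p = 0.0703) or LTA replicate 2 (0.99, adjusted p = 0.0854) at 4 h, and control replicate 1 (1.20, adjusted p = 0.0534), control replicate 2 (0.98, adjusted p = 0.0947) or LTA replicate 1 (0.92, adjusted p = 0.101) at 24 h. SRXN1 (adjusted p = 0.0518), NQO1 (1.06 ± 0.41, adjusted p = 0.0828) and GCLM (-1.05 ± 0.44, adjusted p = 0.110) were not called and became so with no filter on low counts (adjusted p = 0.00259, 0.00880 and 0.00333). SRXN1 was also called with DESeq2 (adjusted p = 0.00991) and RLE scaling (adjusted p = 0.0489), and without control replicate 1 at 24 h (adjusted p = 0.0260). GCLM was called without control replicate 2 (-1.62, adjusted p = 0.0208) or LTA replicate 1 (-1.41, adjusted p = 0.0313) at 4 h.

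At 10 µg/ml, 8 of 10 responses differed with time, 4 in each direction, against 33.7% of all genes (19.7% larger, 14.0% smaller). GCLM (-1.77 ± 0.44, adjusted p = 0.00772), NFE2L2 (-1.34 ± 0.20, adjusted p = 0.000255), TXNRD1 (-1.27 ± 0.18, adjusted p = 0.000170) and SOD2 (-1.08 ± 0.31, adjusted p = 0.0156) responded less at 24 h. FTH1 (2.52 ± 0.32, adjusted p = 7.33e-05), HMOX1 (2.09 ± 0.49, adjusted p = 0.00567), NQO1 (1.80 ± 0.40, adjusted p = 0.00390) and FTL (0.69 ± 0.23, adjusted p = 0.0377) responded more. SOD2 lost its call without LTA replicate 1 at 4 h (-1.01, adjusted p = 0.0534) or control replicate 1 at 24 h (-0.82, adjusted p = 0.0908). FTL lost it without control replicate 1 (0.55, adjusted p = 0.0841), LTA replicate 1 (0.59, adjusted p = 0.152) or LTA replicate 2 (0.75, adjusted p = 0.0646) at 4 h, and without control replicate 1 (0.58, adjusted p = 0.153) or LTA replicate 1 (0.47, adjusted p = 0.206) at 24 h. The untreated level had fallen with time for the 4 genes that responded more at 24 h, and also for SOD2 and NFE2L2, which responded less.

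**Figure D3:**
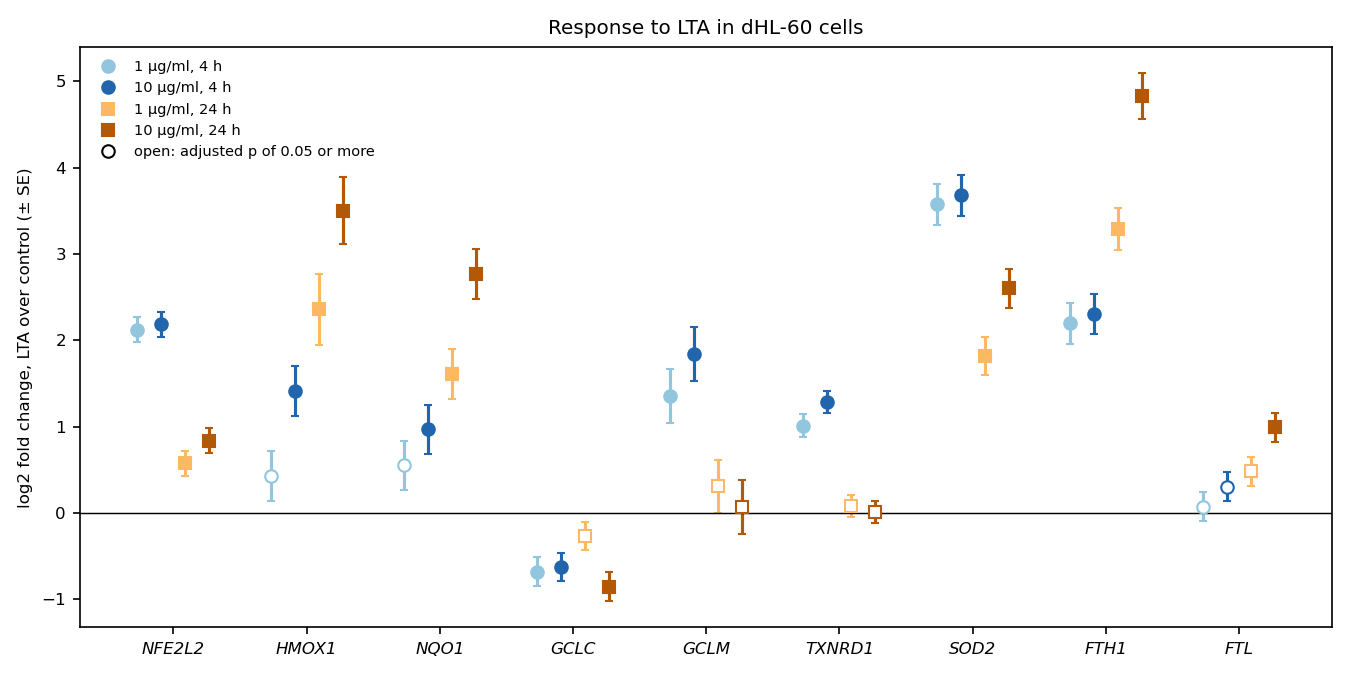
Log2 fold change of LTA over the untreated control of the same time in dHL-60, with SE, for 9 of the 10 genes (SRXN1 had 0 counts in the 4 h controls). Blue circles are 4 h and orange squares 24 h, the darker shade 10 µg/ml, and open symbols have an adjusted p of 0.05 or more. SOD2 and NFE2L2 are higher at 4 h, FTH1, HMOX1 and NQO1 at 24 h, and GCLC is the one gene below 0.

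The step from 1 to 10 µg/ml was called for FTH1 and NQO1 at 24 h and for none of the 10 genes at 4 h. At 4 h, 0 of 10 genes were called between the doses with edgeR, and 0 with DESeq2, where 0.00843% of all genes tested (1 of 11866, which was higher) was called. At an unadjusted p under 0.05 there were 3 of the 10: HMOX1 (0.98 ± 0.28), TXNRD1 (0.27 ± 0.13) and SRXN1, which was lower with 10 µg/ml. HMOX1 became called with no filter on low counts (adjusted p = 0.000175). At 24 h, 2 of 10 genes were higher with 10 µg/ml, against 3.82% of all genes called (3.03% higher, 0.792% lower). FTH1 rose by a further 1.54 ± 0.23 (adjusted p = 0.00293) and NQO1 by 1.16 ± 0.26 (adjusted p = 0.0261). Without replicate 2 of the 1 µg/ml group neither was called (FTH1 1.40, adjusted p = 0.0709; NQO1 0.88, adjusted p = 0.228), and without replicate 1 of the 10 µg/ml group NQO1 was not (0.78, adjusted p = 0.339). With DESeq2, or with no filter, 6 of 10 were called, adding HMOX1 (1.14 ± 0.32, adjusted p = 0.0639 with edgeR), SOD2 (0.79 ± 0.22, adjusted p = 0.0608), FTL (0.51 ± 0.17, adjusted p = 0.107) and GCLC, which was lower (-0.59 ± 0.17, adjusted p = 0.0686). SOD2 was also called with RLE scaling (adjusted p = 0.0481) and without replicate 1 of the 1 µg/ml group (1.15, adjusted p = 0.0334).

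In uHL-60 none of the 9 genes tested was called for LTA over both times, with edgeR (0 at an unadjusted p under 0.05) or DESeq2, where edgeR called 0.209% of all genes (23 of 11020, 0.0998% higher and 0.109% lower) and DESeq2 1 gene. That fit takes the response as the same at 4 and 24 h and leaves 1 residual degree of freedom, so it says little of small responses. HMOX1 was not tested, with 2 and 3 counts in the controls and 3 and 1 with LTA. NFE2L2 held 72.3 CPM untreated and 73.1 CPM with LTA at 4 h, and 69.0 and 81.9 CPM at 24 h, a ratio of 1.01 (95% exact binomial interval 0.937 to 1.09) and 1.19 (1.10 to 1.28). SOD2 held 39.7 and 36.8 CPM at 4 h and 39.5 and 37.8 CPM at 24 h. FTH1 held 65.3 and 79.9 CPM at 4 h, a ratio of 1.22 (1.13 to 1.32), and 75.9 and 74.9 CPM at 24 h, a ratio of 0.986 (0.913 to 1.06). The interval also left out 1 for FTL at 24 h (0.896, 0.885 to 0.908), GCLC at 24 h (1.13, 1.04 to 1.24) and TXNRD1 at 4 h (0.935, 0.901 to 0.97). With 1 library a group, these intervals cover counting error only and say nothing of the spread between cultures. Even the largest of these ratios was far from the 4.58-fold rise of FTH1 in dHL-60 at 4 h.

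The responses of the 2 cell states were compared as an interaction over 16 libraries, each lone uHL-60 library assumed to vary like the dHL-60 replicates. At 4 h, 5 of 10 responses were larger in dHL-60, or 4 without SRXN1, against 10.3% of all genes called (5.43% larger, 4.91% smaller in dHL-60). They were those of SOD2 (3.69 ± 0.38, adjusted p = 9.92e-05), NFE2L2 (2.11 ± 0.24, adjusted p = 0.000190), FTH1 (1.91 ± 0.38, adjusted p = 0.00623), TXNRD1 (1.11 ± 0.22, adjusted p = 0.00515) and SRXN1. SRXN1 had 0 counts in the dHL-60 controls at 4 h and shares most of its exon bases with another gene, so its call is not used. GCLM (1.34 ± 0.50, adjusted p = 0.108) was not called, but was without control replicate 2 (1.92, adjusted p = 0.0217) or LTA replicate 1 (1.73, adjusted p = 0.0244), and with no filter (adjusted p = 0.00130). GCLC differed by -0.72 ± 0.28 (adjusted p = 0.127). At 24 h, 2 of 10 were larger in dHL-60, against 1.63% of all genes called (1.35% larger, 0.278% smaller). They were FTH1 (3.29 ± 0.39, adjusted p = 0.00103) and SOD2 (1.86 ± 0.37, adjusted p = 0.0237). With control replicate 2 (1.67, adjusted p = 0.0712) or LTA replicate 1 (1.53, adjusted p = 0.0766) left out, SOD2 was not called. NQO1 (1.81 ± 0.48, adjusted p = 0.0801) was called with DESeq2 (adjusted p = 0.0436), with no filter (adjusted p = 0.000318) and without LTA replicate 2 (2.11, adjusted p = 0.0476).

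**Figure D4:**
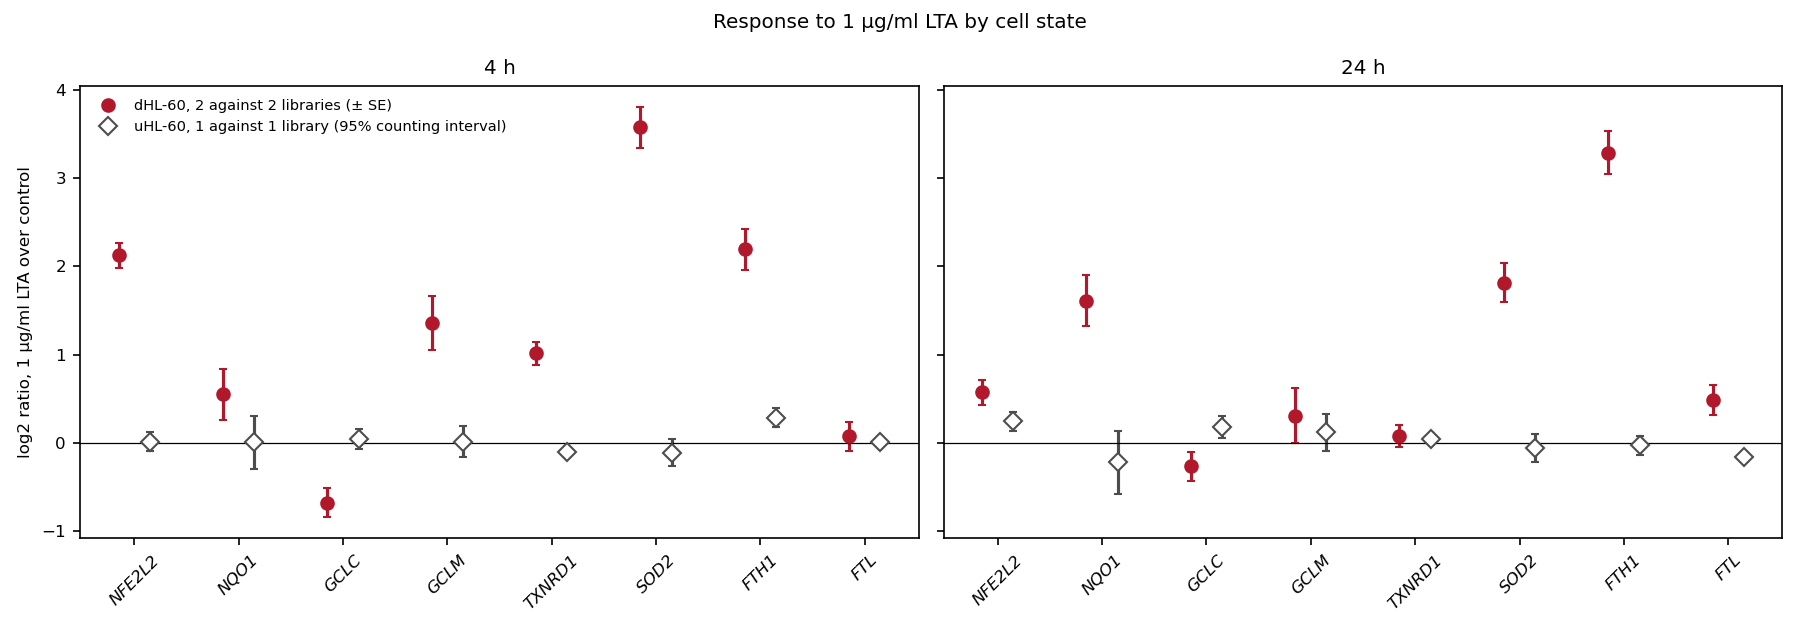
Log2 ratio of 1 µg/ml LTA over control at 4 h (left) and 24 h (right) for 8 of the 10 genes. Red circles are dHL-60 (2 against 2 libraries, ± SE) and open diamonds uHL-60 (1 against 1 library, 95% counting interval), which lie near 0 throughout, while SOD2, NFE2L2 and FTH1 stand above 2 in dHL-60 at 4 h.

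Untreated dHL-60 and uHL-60 cells held these genes at different levels, with 5 of 10 higher and 3 of 10 lower in dHL-60, or 2 lower without SRXN1. Of all genes, 58.0% were called (29.7% higher, 28.3% lower). HMOX1 is among the 5 higher, but its call is not used as support, for the reason given below. Differentiation and the way each of the 2 sets of libraries was grown or counted cannot be told apart. The uHL-60 columns stand in another row order than the dHL-60 columns, and were realigned. After that, 97 symbols remained far above in uHL-60, and 70.8% of those in GENCODE 29 share over 10% of their exon bases with another gene on the same strand, against 8.27% of all symbols. SRXN1, with 85.0% of its exon bases shared with AL121758.1, is one of the genes this touches: it held 581 and 712 counts in untreated uHL-60 against 0 to 4 in dHL-60, and its direction is not read here. NFE2L2, with 17.6% shared, is also above that limit, and a part of counting in its difference between states was not tested.

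FTH1 held 3331 and 2567 CPM in untreated dHL-60 at 4 h against 65.3 CPM in uHL-60, and 482 and 418 against 75.9 CPM at 24 h, with a log2 difference over both times of 3.75 ± 0.65 (adjusted p = 0.00130). HMOX1, with 2 and 3 counts in uHL-60, was 282-fold higher at 4 h (95% exact binomial interval 77.7 to 2335) and 9.09-fold at 24 h (2.92 to 45.7), intervals that cover counting error only. It passed the filter through the dHL-60 libraries, where it is high, so its call is not used as support. FTL was higher by 1.62 ± 0.25 (adjusted p = 0.000658), SOD2 by 1.70 ± 0.40 (adjusted p = 0.00584) and NFE2L2 by 0.71 ± 0.19 (adjusted p = 0.0109). Without the 4 h uHL-60 control NFE2L2 was not called (0.45, adjusted p = 0.0840). On the other side, TXNRD1 held 314 and 279 CPM in uHL-60 and 110 to 127 CPM in untreated dHL-60, a log2 difference of -1.37 ± 0.17 (adjusted p = 0.000197), and GCLM was lower too (-1.33 ± 0.27, adjusted p = 0.00311). With LTA at 4 h, TXNRD1 in dHL-60 reached 221 to 293 CPM. GCLC (0.37 ± 0.18, adjusted p = 0.113) was called with upper-quartile scaling (adjusted p = 0.0441). NQO1 (-0.68 ± 0.27, adjusted p = 0.0586) was called with no filter (adjusted p = 0.0383), without control replicate 2 of dHL-60 at 4 h (-0.83, adjusted p = 0.0455) and without the 4 h uHL-60 control (-1.03, adjusted p = 0.0146). Whether reads matching several ferritin copies were counted alike in both states was not tested.

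Other genes of the pathway were described from 4 lists. Of 14 genes that regulate NRF2 or share its partners, 6 rose and 1 fell at 4 h with either dose, against 18.7% of all genes higher and 20.1% lower with 1 µg/ml and 20.0% and 21.3% with 10 µg/ml. At 24 h, 2 rose with 1 µg/ml, close to the 13.9% of all genes, and 4 with 10 µg/ml (23.6% of all genes), and 0 fell. The median log2 fold changes of the list were 0.21 and 0.22 at 4 h and 0.16 and 0.23 at 24 h, beside the all-gene medians given above. MAFF, a small MAF protein, went from 11.2 ± 1.91 CPM (SD, n = 2) in the 4 h controls to 175 ± 32.2 with 1 µg/ml and 182 ± 13 with 10 µg/ml (log2 fold change 3.97 ± 0.29 and 4.03 ± 0.29), and at 24 h from 1.76 ± 0.69 to 12.3 ± 4.24 and 34.7 ± 11.6 CPM (2.76 ± 0.35 and 4.27 ± 0.34). NFE2L3, a relative of NFE2L2, rose from 7.55 ± 0.98 to 49.3 ± 1.41 and 47.4 ± 0.41 CPM at 4 h (2.71 ± 0.16 and 2.66 ± 0.16) and by 0.65 ± 0.15 with 1 µg/ml at 24 h. NFE2, another relative with a role in blood cells, fell from 180 ± 26.9 to 71.0 ± 14.0 and 67.1 ± 8.96 CPM at 4 h (-1.34 ± 0.18 and -1.42 ± 0.18). SQSTM1, an autophagy receptor that binds KEAP1, rose at 24 h with 10 µg/ml from 321 ± 10.1 to 603 ± 105 CPM (0.93 ± 0.15). It was also called higher at 4 h, by 1.05 ± 0.15 with 1 µg/ml and 1.17 ± 0.15 with 10 µg/ml.

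Among 26 tested of 31 further NRF2 targets and enzymes of glutathione and NADPH supply, 8 rose and 4 fell at 4 h with either dose (18.7% of all genes higher and 20.1% lower with 1 µg/ml, 20.0% and 21.3% with 10 µg/ml). At 24 h, 8 rose and 1 fell with 1 µg/ml (13.9% and 7.26% of all genes), and 14 rose and 1 fell with 10 µg/ml (23.6% and 19.0%). The medians were 0.13 and 0.19 at 4 h and 0.31 and 0.47 at 24 h. SLC7A11, which imports cystine for glutathione synthesis, rose at 4 h from 44.7 ± 14.4 to 282 ± 62.7 CPM with 1 µg/ml and 324 ± 14.1 CPM with 10 µg/ml (2.66 ± 0.28 and 2.86 ± 0.28). OSGIN1, an oxidative stress-induced growth inhibitor, rose from 4.10 ± 0.99 to 19.5 ± 1.19 CPM with 1 µg/ml (2.24 ± 0.26), and by 2.52 ± 0.26 with 10 µg/ml. CBR1, a carbonyl reductase, fell from 19.5 ± 2.39 to 7.22 ± 0.37 and 7.47 ± 0.66 CPM (-1.43 ± 0.16 and -1.38 ± 0.16). IDH1, which makes NADPH in the cytosol, fell by 0.99 ± 0.21 and 0.68 ± 0.21, the latter not called without control replicate 2 (-0.53, adjusted p = 0.110) or LTA replicate 1 (-0.42, adjusted p = 0.192).

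The largest relative changes of this list were at very low counts. PIR, a nuclear iron-binding protein, had 13 counts with 10 µg/ml at 4 h against 1 in the controls, a ratio of 13.4 (2.02 to 570), not called with DESeq2 (adjusted p = 0.0531) or without control replicate 1 (adjusted p = 0.0718). With 10 µg/ml at 24 h it had 88 counts against 3, a ratio of 35.8 (11.8 to 177). CBR3, a second carbonyl reductase, had 27 and 34 counts at the 2 doses at 24 h against 0, at least 10.0-fold and 13.8-fold higher. Since its controls held 0 counts, its calls are not used as support, though CBR3 is among the genes counted as higher. ABCC3, an efflux pump for conjugates, had 153 counts with 1 µg/ml at 24 h against 10 (17.0-fold, 9.0 to 36.2). MGST1, a microsomal glutathione transferase, was the 1 gene that fell at 24 h, by 0.53 ± 0.14 with 1 µg/ml and 0.52 ± 0.14 with 10 µg/ml. Its calls were lost without control replicate 1 (-0.33, adjusted p = 0.190, and -0.32, adjusted p = 0.134) and, at 1 µg/ml, without LTA replicate 1 (-0.44, adjusted p = 0.160).

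Of 24 other enzymes of superoxide, peroxide and thiol chemistry, 21 were tested. At 4 h, 1 rose and 6 fell with 1 µg/ml (18.7% of all genes higher, 20.1% lower), and 2 rose and 7 fell with 10 µg/ml (20.0% and 21.3%). Only the totals called in either direction, 7 and 9 of the 21, are near the shares of all genes (38.7% and 41.3%). At 24 h, 2 rose and 2 fell with 1 µg/ml (13.9% and 7.26% of all genes), and 8 rose and 5 fell with 10 µg/ml (23.6% and 19.0%). The medians were -0.15 and -0.06 at 4 h and 0.01 and 0.07 at 24 h. The sestrins, which restrain growth signalling under stress, split at 4 h: SESN2 rose by 1.23 ± 0.19 and 1.38 ± 0.19, while SESN1 fell by 1.12 ± 0.20 and 1.03 ± 0.20 and SESN3 by 1.22 ± 0.26 and 1.21 ± 0.26. At 24 h SESN3 fell from 206 ± 25.0 to 71.0 ± 2.01 and 40.5 ± 11.3 CPM (-1.52 ± 0.26 and -2.32 ± 0.27). Its response differed from that at 4 h with 10 µg/ml (-1.11 ± 0.37, adjusted p = 0.0340) and was not called different with 1 µg/ml (-0.30 ± 0.37, adjusted p = 0.613). TXNIP, which binds and restrains thioredoxin, fell at 24 h from 1431 ± 6.61 to 963 ± 15.8 and 832 ± 72.6 CPM (-0.56 ± 0.13 and -0.76 ± 0.13). At 1 µg/ml its call was lost without control replicate 1 (adjusted p = 0.0542) or either LTA library (adjusted p = 0.0781 and 0.0501).

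Glutaredoxin GLRX rose at 24 h by 0.66 ± 0.15 with 1 µg/ml, not called without control replicate 2 (0.55, adjusted p = 0.0819) or LTA replicate 1 (0.63, adjusted p = 0.0658), and by 1.30 ± 0.16 with 10 µg/ml. PRDX1, a peroxiredoxin, rose by 0.66 ± 0.12 with 1 µg/ml at 24 h. Its value of 0.36 ± 0.13 with 10 µg/ml at 4 h lost its call with upper-quartile scaling (0.22, adjusted p = 0.151), with no filter (adjusted p = 0.0818), and without control replicate 2 (0.29, adjusted p = 0.170) or either LTA library (0.34 and 0.37, adjusted p = 0.132 and 0.0955). GPX4, which reduces lipid peroxides, rose from 225 ± 8.02 to 474 ± 138 CPM with 10 µg/ml at 24 h (1.10 ± 0.19).

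Of 26 genes of iron uptake, export and control, 19 were tested. At 4 h 6 rose and 5 fell with either dose (18.7% of all genes higher and 20.1% lower with 1 µg/ml, 20.0% and 21.3% with 10 µg/ml). At 24 h 4 rose and 4 fell with 1 µg/ml (13.9% and 7.26%) and 7 rose and 5 fell with 10 µg/ml (23.6% and 19.0%). The medians were 0.24 and 0.28 at 4 h and -0.15 and -0.09 at 24 h. SLC11A2, an importer of ferrous iron, rose at 4 h from 81.1 ± 9.51 to 226 ± 32.0 and 254 ± 38.7 CPM (1.48 ± 0.18 and 1.65 ± 0.18). STEAP4, a metalloreductase, rose from 66.8 ± 23.8 to 188 ± 2.09 and 156 ± 12.9 CPM at 4 h (1.5 ± 0.23 and 1.23 ± 0.22), and from 20.2 ± 4.88 to 103 ± 11.4 and 116 ± 19.1 CPM at 24 h (2.36 ± 0.24 and 2.54 ± 0.24). Its relative STEAP3 fell at 4 h from 22.2 ± 2.01 to 7.24 ± 0.23 and 8.25 ± 0.37 CPM (-1.61 ± 0.16 and -1.42 ± 0.16). SLC40A1, ferroportin, the exporter of iron from cells, fell at 4 h from 4.38 ± 0.95 to 0.975 ± 0.377 and 1.21 ± 0.03 CPM (-2.23 ± 0.45 and -1.85 ± 0.43) and at 24 h from 2.43 ± 0.05 to 0.903 ± 0.067 and 0.50 ± 0.47 CPM (-1.41 ± 0.43 and -2.17 ± 0.48). At 24 h and 1 µg/ml that call was lost with DESeq2 (adjusted p = 0.0821) and without any 1 of the 4 libraries (adjusted p = 0.0959 to 0.157).

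HAMP, hepcidin, the hormone that closes ferroportin, had 12 counts at each dose at 24 h against 0, at least 4.44-fold and 4.88-fold higher. Neither call is used as support, as the controls held 0 counts, though HAMP is among the genes counted as higher. At 1 µg/ml its call was lost without either control (adjusted p = 0.0860 and 0.0519) or LTA replicate 1 (adjusted p = 0.122). SLC25A37, the mitochondrial iron importer mitoferrin, fell by 0.55 ± 0.13 with 1 µg/ml at 24 h, not called without control replicate 2 (-0.52, adjusted p = 0.0615) or LTA replicate 1 (-0.44, adjusted p = 0.136). SLC39A14, a carrier of zinc and iron, fell from 17.6 ± 1.21 to 6.38 ± 3.42 CPM with 10 µg/ml at 24 h (-1.42 ± 0.29).

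**Figure D5:**
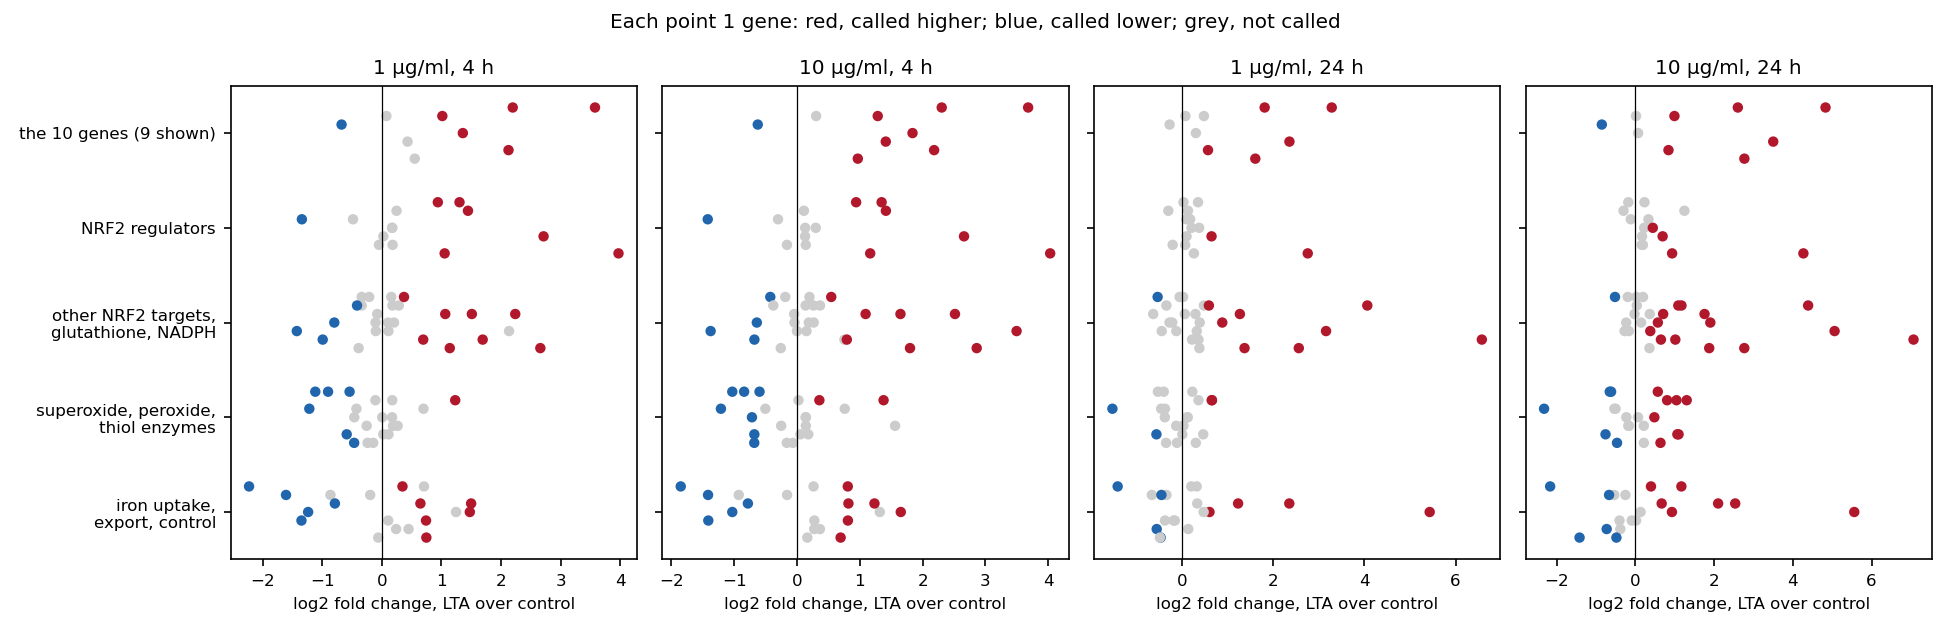
Log2 fold change of LTA over control in dHL-60 for every tested gene of the 10-gene set (without SRXN1) and of the 4 other lists, 1 panel per dose and time. Each point is 1 gene, red where it rose, blue where it fell and grey where it was not called, with vertical position within a list only spreading the points. At 24 h with 10 µg/ml, 14 of the further NRF2 targets are called higher and 1 lower. CBR3, with 0 counts in the controls, is among those higher.

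Across the 12 dHL-60 libraries, which fall in 6 pairs and share the same treatments, the genes with the most similar pattern of log2 CPM (a pseudocount of 0.5 added, genes of at least 5 CPM on average) differed between the members. NFE2L2 was closest to DUSP16 (r = 0.996), NFKB1 (0.995) and PSTPIP2 (0.995), and SOD2 to RHOQ, TANK and GCH1 (0.996 each). TXNRD1 was closest to MAPK1IP1L (0.988), RBM17 (0.988) and NCOA7 (0.985), and GCLM to CCDC82 (0.972), DNAJC3 (0.968) and CCDC50 (0.966). FTH1 was close to UNC119 (0.995) and ALOX5AP (0.994), FTL to PLEKHO1 (0.972), BATF (0.970) and FAM50A (0.965). HMOX1 lay nearest LHFPL2 (0.980), TMEM71 (0.976) and TPD52L2 (0.972), and NQO1 nearest FLRT2 (0.965), CEACAM3 (0.965) and TNFRSF10D (0.957). For GCLC they were LRIG2 (0.948), NUP50 (0.944) and RCBTB1 (0.937), and for SRXN1, from few counts, UPF1 (0.863), GTPBP1 (0.856) and TAF10 (0.855). Among the members, NFE2L2 ran closest to SOD2 (0.982) and TXNRD1 (0.949) and less closely to NQO1 (0.401), FTH1 to FTL (0.906), and GCLC ran opposite to FTH1 (-0.796) and NQO1 (-0.755) and less so to its partner GCLM (-0.311).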

How the data were processed

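RNA was measured in 16 HL-60 libraries, grouped by their titles. Per the labels' protocols, a stranded mRNA kit was used. Values were deposited as raw counts, 1 column a library. GRCh38 is the build named in the submitters' processing notes, which also list, with no role or order, featureCounts 2.0.1 (Subread), edgeR 3.36.0, DESeq2 1.28.0, HISAT2 2.1.0 and fastp 0.20.0. Rows that name no gene numbered 0.

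The uHL-60 columns were realigned from a plain character sort of the symbols, which moves 1343 of 23575 symbols and none of the 10 genes. Over the moved symbols the correlation with dHL-60 log2 counts was 0.248 to 0.253 as deposited and 0.896 to 0.901 realigned.

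The test was edgeR's quasi-likelihood test (version 4.0.16, two-sided, TMM, filterByExpr, R 4.3.3) and Benjamini-Hochberg adjustment over all genes tested. The fits in dHL-60 took all 12 libraries, and those comparing responses between states all 16. Untreated states (6 libraries), and LTA in uHL-60 (4 libraries), had time as an additive term. Scripts were tested on simulated data. DESeq2 1.42.0, RLE and upper-quartile scaling, no filter, a replicate block, summed ferritin copies, the deposited column order and leaving out each library were alternatives. The 2 libraries of each dHL-60 group differed by more than sampling noise (chi-square per degree of freedom 10.3 to 18.9). The 10 genes and the lists were chosen with earlier results of these data known. From each list and comparison with LTA the 2 called genes that rose most and the 2 that fell most are named, and for each of the 10 genes the 3 most correlated, of which 1 gene is not reported here.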

Additional observations from a re-analysis of the deposited data

Results flagged for a closer look

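These values stand out because a gene's response to LTA differed between 2 times or 2 cell states by a test of the difference itself (edgeR, log2 scale, adjusted p under 0.05). Between 24 h and 4 h in dHL-60 with 1 µg/ml, the response was smaller at 24 h for SOD2 (-1.76), NFE2L2 (-1.55) and TXNRD1 (-0.93), and larger for HMOX1 (1.93) and FTH1 (1.09). With 10 µg/ml it was smaller at 24 h for GCLM (-1.77), NFE2L2 (-1.34), TXNRD1 (-1.27) and SOD2 (-1.08), and larger for FTH1 (2.52), HMOX1 (2.09), NQO1 (1.80) and FTL (0.69). Between the cell states with 1 µg/ml, the response was larger in dHL-60 at 4 h for SOD2 (3.69), NFE2L2 (2.11), FTH1 (1.91), TXNRD1 (1.11) and SRXN1 (8.29, a fitted value over 0 counts in the controls, which is no size), and at 24 h for FTH1 (3.29) and SOD2 (1.86). The groups of 2 libraries were too small for a check of outlying samples.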

How the results depend on the processing

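With 2 libraries a group, and 1 in uHL-60, 1 library can set a call. For the 10 genes, another scaling, filter, tool, column order or counts summed with ferritin copies gave 581 values, of which 551 kept direction and side of the threshold, 0 lost a call, 22 gained one and 8 changed sign, none of these called. Leaving out 1 library gave 580 values, with 511 kept, 32 calls lost, 9 gained and 28 sign changes, none called. For the other named genes, 4 of 220 calls were lost in the former and 23 of 220 in the latter. The causes were not tested.

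Sign changes under upper-quartile scaling were FTL (-0.041) at 1 µg/ml and 4 h, GCLM (-0.0051) and TXNRD1 (-0.060) at 10 µg/ml and 24 h, and, between the cell states, FTL (-0.045) at 4 h and TXNRD1 (-0.042) and SRXN1 (-0.022) at 24 h. SRXN1 there was -0.091 with DESeq2, and GCLC in untreated cells over time was 0.018 with no filter. Upper-quartile scaling moved the median of all genes by -0.118 at 1 µg/ml and -0.134 at 10 µg/ml and 4 h, 0.124 between untreated states and -0.102 in the difference between states at 4 h. It turned 2214 genes higher and 2380 lower into 1805 and 3077 (1 µg/ml, 4 h), 2379 and 2524 into 1868 and 3263 (10 µg/ml, 4 h), 1651 and 862 into 1441 and 1179 (1 µg/ml, 24 h) and 684 and 619 into 577 and 799 (between states, 4 h).

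Between the doses at 4 h, 1 gene was called, against 22 with no filter (1 of the 10) and 2 with DESeq2. At 24 h, 453 were called, against 1354 with no filter (6 of the 10 rather than 2) and 748 with DESeq2 (6 of the 10). The response to 1 µg/ml over time had 8 of the 10 called with no filter. LTA in uHL-60 had 1 gene with DESeq2 against 23, and the difference between states at 24 h 652 with no filter and 394 with DESeq2 against 205. The replicate block gave 4 of the 10 between doses at 24 h, adding HMOX1 (adjusted p = 0.00758) and SOD2 (adjusted p = 0.0364). It also called FTL at 1 µg/ml and 24 h (adjusted p = 0.0460) and SRXN1 in the response to 1 µg/ml over time (adjusted p = 0.0387), and left 86 of 90 values on their side of the threshold, with 0 calls lost. Over 15 pairs of groups the correlation of deviations between libraries of the same replicate number was -0.295 to 0.446 (median 0.0969), with 6 over 0.1. These mixed values do not decide whether replicate numbers pair the libraries.

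Leaving out 1 library at a time, called genes ranged from 3181 to 4355 at 10 µg/ml and 4 h, 1139 to 1758 at 1 µg/ml and 24 h, 1 to 2 between doses at 4 h, 49 to 662 between doses at 24 h (0 to 3 of the 10), 3138 to 4226 in untreated cells over time, 1614 to 2270 and 2660 to 4051 in the responses over time at 1 and 10 µg/ml, and 88 to 222 in the difference between states at 24 h (1 to 3 of the 10). In the order given, the lowest counts of genes came without LTA replicate 1 (3181), LTA replicate 1 (1139), and, between doses at 24 h, replicate 2 of the 1 µg/ml group (49), then without the 24 h control replicate 1 (3138 and 1614), the 4 h LTA replicate 1 (2660) and the 24 h LTA replicate 1 (88). Values that changed sign, none of them called, ranged at 4 h with 1 µg/ml from -0.049 to 0.22 (FTL). At 24 h with 1 µg/ml they ranged from -1.03 to 3.90 (SRXN1) and -0.012 to 0.16 (TXNRD1), and with 10 µg/ml from -0.34 to 4.59 (SRXN1), -0.28 to 0.27 (GCLM) and -0.033 to 0.063 (TXNRD1). Between doses at 4 h they ranged from -0.074 to 0.19 (GCLC), -0.081 to 0.31 (SOD2), -0.091 to 0.19 (NFE2L2) and -0.041 to 0.24 (FTH1), and at 24 h from -0.15 to 0.027 (TXNRD1), -0.59 to 0.0071 (GCLM) and -0.012 to 1.67 (SRXN1). In untreated cells over time they ranged from -0.18 to 0.15 (GCLC) and -0.49 to 0.46 (GCLM). Between states they ranged at 4 h from -0.72 to 0.094 (HMOX1) and -0.056 to 0.23 (FTL), and at 24 h from -1.12 to 3.97 (SRXN1) and -0.042 to 0.13 (TXNRD1).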
